A study of Homo sapiens with 6 samples.

Results

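Genes in common use as references for quantitative PCR, 9 in all, were followed through an RNA sequencing experiment in prostate cancer cells: ACTB, B2M, TBP, HPRT1, PPIA, SDHA, YWHAZ, GUSB and TFRC. They were listed by symbol, with earlier results of these data known, and all 9 were found among the 26255 genes of each sample. The cells were 22RV1, a human castration-resistant prostate cancer (CRPC) line. They were grown in RPMI medium with 10% fetal bovine serum, and 3 samples received 10 nM bruceantin (BCT), a quassinoid from plants, for 24 h, while 3 samples received the vehicle DMSO. All 6 samples come from this 1 line, with no genetic change and no second dose or time. The values are FPKM, in which fragment counts are divided by transcript length and by the mapped fragments of the sample, so that genes of different length can be set side by side. The comparison asks what became of each reference gene under BCT, and what each would make of the rest of the table if the samples were scaled to it.

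A reference gene serves in quantitative PCR as the denominator: the level of a target is divided by that of the reference in the same sample, and a change of the reference enters every target with its sign turned. Reference genes are usually picked from functions that every cell needs, such as the cytoskeleton, protein folding, transcription and energy metabolism. None of these functions guards a gene against regulation by a given treatment. In the same study, quantitative PCR was normalized to GAPDH or β-actin, the product of ACTB, so GAPDH is given beside the 9 genes.

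The libraries were alike within groups. Over the genes tested, log2 values correlated at 0.967 to 0.972 between DMSO samples, at 0.959 to 0.966 between BCT samples and at 0.851 to 0.896 across groups. Relative depth, read from the steps between low FPKM values, was 0.877 to 1 with DMSO and 1.05 to 1.13 with BCT, and the number of reads behind a gene is not given by FPKM. Summed FPKM was 1169649 to 1572321 with DMSO and 757534 to 799838 with BCT. A single gene, MIR6087, held 43.5% to 55.3% of the sum in DMSO samples and 31.7% to 32.5% in BCT samples. The values were used as deposited. All 9 prostate epithelial markers looked for had a mean of at least 1 FPKM. Of 10 markers of immune, endothelial and stromal cells, 2 did, CD68 and COL1A1, and none was at 0 in every sample. The summed level of these 10 markers was 4.11 to 5.13 FPKM with DMSO and 11.5 to 14.9 FPKM with BCT, and their part in the results was not tested. The labels do not say whether the 3 samples of a group were separate cultures, so p-values measure the spread between these samples, which may be technical. The labels name no batch. In bulk RNA, fewer cells with a transcript and less of it per cell cannot be told apart.

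Between BCT and DMSO, 7 of the 9 reference genes changed. A gene was called when the log2 fold change from limma on log2(FPKM + 0.1) exceeded 0.85 in size and the Benjamini-Hochberg adjusted p (FDR) was below 0.05. Among 12729 genes whose mean reached 1 FPKM, this rule called 4027, or 31.6%. HPRT1, TFRC, SDHA, B2M, ACTB and PPIA fell, 6 of 9, where 17.8% of all genes tested fell. TBP rose, 1 of 9, where 13.9% of all genes rose. YWHAZ and GUSB were not called. The 3 BCT samples lay wholly outside the range of the 3 DMSO samples for 8 of the 9 genes, all but GUSB, and 85.3% of all genes tested were separated in this way. The smallest p an exact permutation test allows with 3 samples a group is 0.1, and none was run. The median log2 fold change was −0.97 over the 9 genes and −0.04 over all genes tested. From HPRT1 at the lower end to TBP at the upper end the genes spanned 2.56 on the log2 scale, a 5.89-fold difference. The median within-group SD of the 9 genes was 0.084 on the log2 scale, near the 0.094 of all genes tested. It ran from 0.036 for YWHAZ, where 5.04% of all genes had a smaller one, to 0.130 for ACTB, where 71.2% did.

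**Figure D1:**
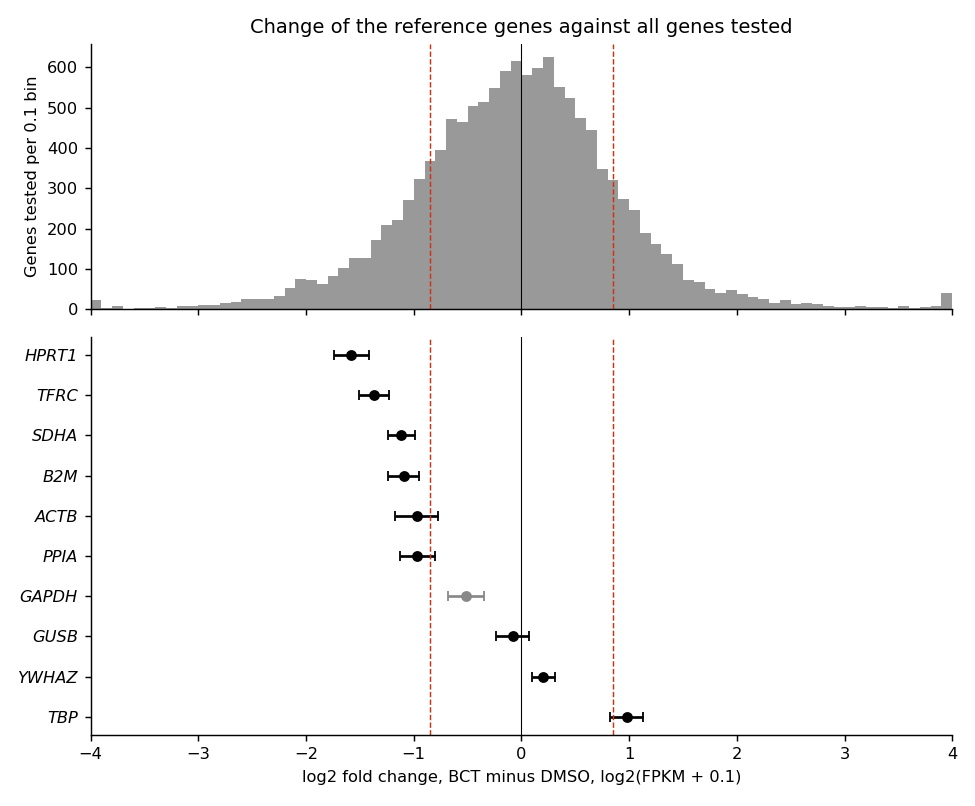
Upper panel, the number of tested genes per 0.1 bin of log2 fold change, BCT minus DMSO, with values beyond 4 placed in the outer bins; lower panel, the 9 reference genes and GAPDH (gray) with 95% intervals from limma, and dashed lines at 0.85 in either direction. The 6 genes that fell sit left of the lower line between −1.58 and −0.97, TBP sits right of the upper line at 0.98, and GUSB, YWHAZ and GAPDH lie between the lines. Rescaling to equal FPKM sums moves all points to the right and puts GUSB and GAPDH above 0.

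The 3 promoters below are those of the gene that rose (TBP), the gene with the largest fall (HPRT1) and the gene with the smallest change (GUSB), shown so that the opposite ends of the group can be read side by side. Each is the 250 bases before the transcription start in RefSeq on GRCh38.p14, 5′ to 3′ on the strand of the gene. TBP lies at chr6:170554119-170554368 on the plus strand, HPRT1 at chrX:134459915-134460164 on the plus strand and GUSB at chr7:65982214-65982463 on the minus strand. Capitals mark matches on either strand to 5 motifs: the TATA box TATAAA, the GC box GGGCGG, the CCAAT box CCAAT, the E-box CACGTG and the ETS motif GGAAGTG. No search motif overlaps another in these 3 windows.
TBP promoter: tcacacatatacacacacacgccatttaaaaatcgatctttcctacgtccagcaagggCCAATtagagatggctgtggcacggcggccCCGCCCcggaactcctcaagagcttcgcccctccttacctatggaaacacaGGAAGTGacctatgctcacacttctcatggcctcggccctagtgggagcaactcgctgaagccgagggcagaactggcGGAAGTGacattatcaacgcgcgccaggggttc
HPRT1 promoter: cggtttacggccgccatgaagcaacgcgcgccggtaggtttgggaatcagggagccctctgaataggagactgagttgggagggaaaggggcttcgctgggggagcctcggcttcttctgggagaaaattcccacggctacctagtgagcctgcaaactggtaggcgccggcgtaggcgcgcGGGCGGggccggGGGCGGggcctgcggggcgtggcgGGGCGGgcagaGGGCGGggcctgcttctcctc
GUSB promoter: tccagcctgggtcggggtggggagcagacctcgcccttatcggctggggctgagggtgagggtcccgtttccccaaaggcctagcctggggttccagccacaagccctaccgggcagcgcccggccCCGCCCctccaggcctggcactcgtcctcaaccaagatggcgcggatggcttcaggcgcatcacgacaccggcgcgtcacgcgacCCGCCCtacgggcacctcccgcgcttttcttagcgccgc
The TBP window held 2 ETS motifs, 1 GC box and 1 CCAAT box, and 56.0% of its bases were G or C. HPRT1 had 4 GC boxes and none of the other motifs, at 68.8% G or C. GUSB had 2 GC boxes and no other motif, at 70.4%. Among all 35116 promoters of this length, a GC box occurred in 42.6%, a CCAAT box in 32.0%, a TATA box in 10.7%, an ETS motif in 9.28% and an E-box in 6.34%. Of the 7 reference genes with a promoter sequence, PPIA and TFRC had a TATA box, and TBP and TFRC had an ETS motif although they changed in opposite directions. A match describes the letters only and no binding was measured.

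ACTB encodes β-actin, a building block of the cytoskeleton's filaments, and lies at chr7:5566779-5570232 on the minus strand of hg19. Its FPKM was 1427, 1442 and 1473 in the 3 DMSO samples and 820, 766 and 642 in the 3 BCT samples. Every BCT sample was far below every DMSO sample, and the BCT samples differed among themselves more than the DMSO samples did. The mean fell from 1447 ± 23.2 to 742 ± 91.0 (SD, n = 3), a log2 fold change of −0.97 with an SE of 0.087 (limma, Benjamini-Hochberg adjusted p = 1.3e-05). ACTB had the largest coefficient of variation within the BCT group of the 9 genes, 12.3%. The call was lost after rescaling to equal FPKM sums (−0.20), to equal sums without MIR6087 (−0.58) and by quantile normalization (−0.42), and in a test against the fold threshold itself.

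The other cytoplasmic actin, ACTG1, encodes γ-actin, a protein almost the same as β-actin. Its FPKM was 1551, 1467 and 1522 with DMSO and 1434, 1500 and 1153 with BCT, and the groups overlapped. Its log2 fold change of −0.16 was not called (limma, Benjamini-Hochberg adjusted p = 0.15) and became 0.61 after rescaling to equal FPKM sums. The ratio of ACTB to ACTG1, which a single scaling factor per sample cannot move, was 0.920, 0.983 and 0.968 with DMSO and 0.571, 0.510 and 0.557 with BCT. The 2 actin transcripts were thus near equal in level with DMSO. ACTB was below ACTG1 in every sample of both groups, and further below it with BCT. The coding sequences were compared to see how far reads can separate the pair. Both have 1125 bases without the stop codon, differ at 98 of them and are 91.3% identical, and the longest run without a difference is 59 bases, shorter than the 100-base reads. The first 90 coding bases are shown on GRCh37, from chr7:5569199-5569288 for ACTB and from chr17:79479291-79479380 for ACTG1, both on the minus strand, with the 17 differing bases in capitals.
ACTB: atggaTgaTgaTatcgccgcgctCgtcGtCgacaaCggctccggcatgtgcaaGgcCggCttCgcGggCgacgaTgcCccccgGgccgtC
ACTG1: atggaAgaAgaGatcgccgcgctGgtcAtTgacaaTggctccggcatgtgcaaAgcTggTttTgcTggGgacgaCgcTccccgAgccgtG
Windows of 100 bases from the main transcript of each reference gene were searched for in the transcripts of all other genes. B2M, TBP, HPRT1, GUSB and TFRC shared none. ACTB shared 0.122% of its windows, with the pseudogene ACTBP2, and PPIA shared 257 of 2138 windows with 6 of its pseudogenes. YWHAZ shared 4.04%, with 3 pseudogenes among others. SDHA shared 65.6%, and 1676 of its 1702 shared windows matched an overlapping gene model on the same strand, ENSG00000286001. SDHAP3, a pseudogene that shares 69 windows with SDHA, had 4.73 FPKM with DMSO and 5.21 with BCT, far below SDHA. How the reads of such copies were assigned is not stated, and the values of SDHA and PPIA are less certain than the others for this reason.

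Of 25 other tested genes of the actin family and its partners, 4 fell, 1 rose and 20 were not called, where 17.8% of all genes fell and 13.9% rose. Their median log2 fold change of −0.21 turned to 0.56 after rescaling to equal FPKM sums. TMSB10, which binds actin monomers, had 10722 ± 871 FPKM with DMSO and 3621 ± 456 with BCT (SD, n = 3) and fell by 1.57 on the log2 scale. Its relative TMSB4X moved the other way by 1.36 on that scale, with 73.0 ± 4.87 and 187 ± 5.45 FPKM. CFL1, cofilin, which severs filaments, fell by 1.28 on the log2 scale, and ARPC5 of the Arp2/3 complex, which nucleates branched filaments, fell by 1.01.

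PPIA encodes cyclophilin A, a prolyl isomerase that helps proteins fold and the target of cyclosporin, and lies at chr7:44836235-44842722 on the plus strand of hg19. It was the most abundant of the 9 genes with DMSO, at 1546, 1403 and 1468 FPKM, and with BCT it was at 822, 733 and 707 FPKM. The groups were widely apart, and BCT replicate 1 was the BCT sample nearest to DMSO. PPIA fell from 1472 ± 71.9 to 754 ± 60.4 FPKM (SD, n = 3), a log2 fold change of −0.97 with an SE of 0.070 (limma, Benjamini-Hochberg adjusted p = 4.2e-06). PPIA and ACTB thus changed by the same amount: their log2 ratio differed by −0.003 between groups. The call was lost with equal FPKM sums (−0.20, or −0.58 without MIR6087), with quantile normalization (−0.37) and in the test against the threshold. Of 14 other tested cyclophilins, 1 fell and 3 rose, near the 31.6% called among all genes. Their median was 0.16 as deposited and 0.93 after rescaling to equal FPKM sums, where the median over all genes tested was 0.72. PPIF, the mitochondrial cyclophilin D, fell from 110 ± 1.91 to 45.7 ± 3.53 FPKM. The 3 that rose were PPIG (1.03), NKTR (0.91) and PPWD1 (0.87, all log2 fold changes).

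B2M encodes β2-microglobulin, the light chain of MHC class I molecules, at chr15:45003685-45010357 on the plus strand of hg19. FPKM was 347, 303 and 321 with DMSO and 159, 149 and 147 with BCT. All BCT samples were well below all DMSO samples. B2M fell from 324 ± 21.9 to 151 ± 6.41 FPKM (SD, n = 3), a log2 fold change of −1.09 with an SE of 0.062 (limma, Benjamini-Hochberg adjusted p = 1.5e-06). The call was lost with equal FPKM sums (−0.33, or −0.71 without MIR6087) and with quantile normalization (−0.76). Among 11 other tested genes on a list of MHC class I partners of B2M, 4 fell and 1 rose, where 17.8% of all genes fell and 13.9% rose. Their median of −0.48 turned to 0.29 after rescaling to equal FPKM sums. CALR, the chaperone calreticulin, fell from 1167 ± 38.6 to 291 ± 12.2 FPKM, and PDIA3, its partner in the loading complex, fell by 1.49 on the log2 scale. TAP2, a subunit of the peptide transporter, fell by 1.94, and FCGRT, the heavy chain of the neonatal Fc receptor, fell by 1.83 on the same scale. HLA-B, a class I heavy chain, rose from 5.63 ± 0.934 to 14.9 ± 1.31 FPKM, while HLA-C was at 36.6 ± 5.29 and 31.4 ± 1.41 FPKM and was not called. Class I heavy chains are alike in sequence and read assignment between them is uncertain.

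**Figure D2:**
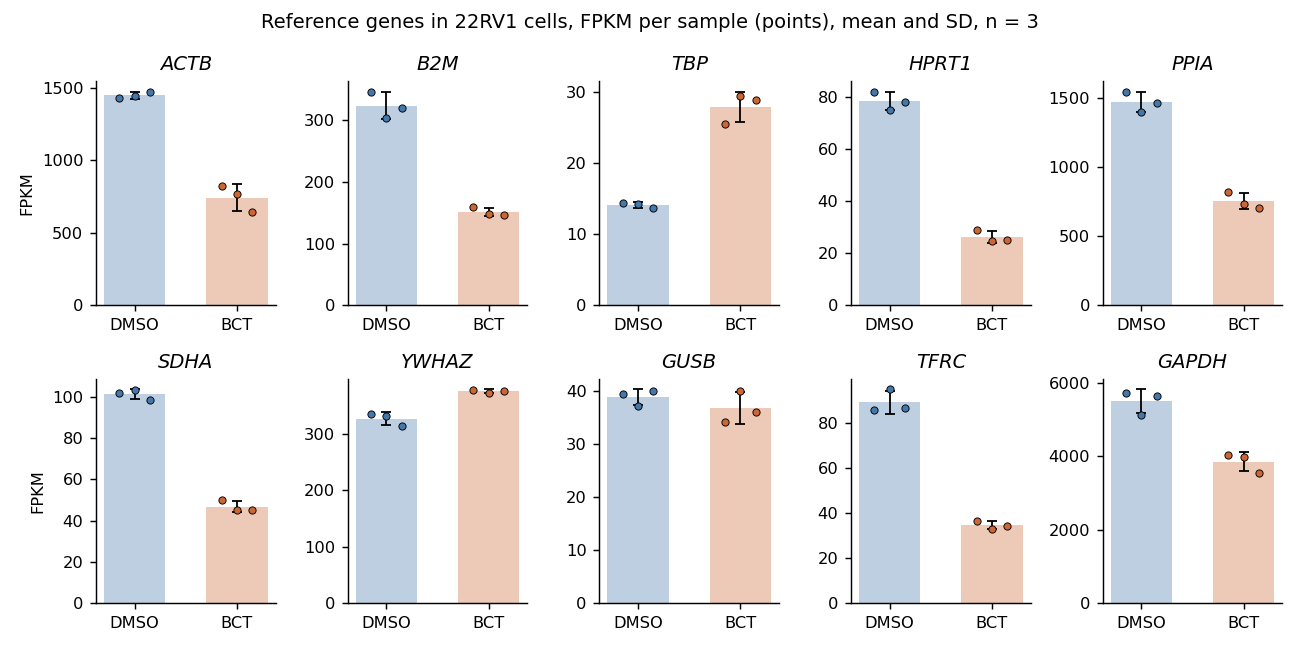
FPKM of the 9 reference genes and GAPDH in each sample (points), with the group mean (bars from 0) and SD (lines, n = 3), for DMSO (blue) and BCT (orange). The BCT points of ACTB, B2M, HPRT1, PPIA, SDHA, TFRC and GAPDH lie below all DMSO points, those of TBP and YWHAZ lie above, and those of GUSB overlap.

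TBP encodes the TATA-binding protein, which with its associated factors forms TFIID and places RNA polymerases at promoters. The gene lies at chr6:170863421-170881958 on the plus strand of hg19. It was the least abundant of the 9 with DMSO, at 14.4, 14.2 and 13.7 FPKM, and rose to 25.4, 29.3 and 28.8 FPKM with BCT. Even the lowest BCT sample was far above the highest DMSO sample. The mean went from 14.1 ± 0.376 to 27.9 ± 2.14 FPKM (SD, n = 3), a log2 fold change of 0.98 with an SE of 0.066 (limma, Benjamini-Hochberg adjusted p = 3.0e-06). In the test against the fold threshold itself TBP was not called. Of 16 other TFIID subunits and relatives, 3 rose, none fell and 13 were not called, where 13.9% of all genes rose. Of the 16, 12 had a positive log2 fold change, and the median of the 16 was 0.35 as deposited. It was 1.12 after rescaling to equal FPKM sums, where the median over all genes tested was 0.72. Every rescaling tried raised the median over all genes tested, so none was a test of the positive sign. BTAF1, an ATPase that removes TBP from DNA, rose from 7.47 ± 1.05 to 16.5 ± 0.983 FPKM. TAF2 rose from 11.7 ± 0.785 to 25.4 ± 1.99 FPKM and TAF3 from 6.89 ± 0.103 to 12.9 ± 0.655 FPKM. TBPL1, a TBP relative, had 20.9 ± 0.989 FPKM with DMSO and 24.3 ± 1.24 with BCT and was not called.

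HPRT1 encodes the enzyme that salvages hypoxanthine and guanine into purine nucleotides. It lies at chrX:133594175-133634698 on the plus strand of hg19. FPKM was 82.2, 75.3 and 78.1 with DMSO and 28.9, 24.8 and 25.0 with BCT. The groups were further apart on the log2 scale than those of any other of the 9 genes. HPRT1 fell from 78.5 ± 3.45 to 26.2 ± 2.32 FPKM (SD, n = 3), to 33.4% of the DMSO mean, a log2 fold change of −1.58 with an SE of 0.071 (limma, Benjamini-Hochberg adjusted p = 6.9e-07). Of all genes tested, 90.7% had a smaller change in size. With equal FPKM sums the log2 fold change was −0.81 and the call was lost. Among 8 other tested genes of purine salvage and its neighboring steps, 3 fell, none rose and 5 were not called, where 17.8% of all genes fell and 31.6% were called in either direction, with a median of −0.46 that turned to 0.30 after rescaling to equal FPKM sums. PRPS2, which makes the phosphoribosyl donor used by HPRT1, fell from 56.0 ± 1.94 to 15.3 ± 2.59 FPKM. Its paralog PRPS1 was at 46.9 ± 2.30 FPKM with DMSO and 51.3 ± 3.28 with BCT and was not called. IMPDH1, an enzyme of guanine nucleotide synthesis, fell by 1.48 on the log2 scale, while its isozyme IMPDH2 was at 305 FPKM with DMSO and 412 with BCT and was not called. APRT, which salvages adenine, fell by 0.91 on the log2 scale.

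SDHA encodes the flavoprotein subunit of succinate dehydrogenase, complex II of the respiratory chain, at chr5:218338-257197 on the plus strand of hg19. FPKM was 102, 103 and 98.7 with DMSO and 50.1, 45.1 and 45.3 with BCT. BCT samples sat near the middle between 0 and the DMSO level, with little spread. SDHA fell from 101 ± 2.41 to 46.8 ± 2.81 FPKM (SD, n = 3), a log2 fold change of −1.11 with an SE of 0.056 (limma, Benjamini-Hochberg adjusted p = 1.0e-06). The call was lost with equal FPKM sums (−0.35, or −0.73 without MIR6087). The other subunits of the complex were not called. SDHB had 154 ± 4.49 FPKM with DMSO and 167 ± 4.18 with BCT, SDHC 87.1 ± 2.71 and 51.2 ± 1.86, and SDHD 131 ± 1.75 and 82.9 ± 2.21. All 7 other subunits and assembly factors were tested and none was called, where 31.6% of all genes tested were called in either direction. Their median of −0.33 turned to 0.43 after rescaling to equal FPKM sums.

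GUSB encodes β-glucuronidase, a lysosomal enzyme that breaks down glycosaminoglycans, at chr7:65425672-65447301 on the minus strand of hg19. FPKM was 39.3, 37.1 and 39.9 with DMSO and 34.1, 40.0 and 36.0 with BCT. GUSB was the only one of the 9 genes whose groups overlapped, and BCT replicate 2 was its highest sample. Its means were 38.8 ± 1.47 and 36.7 ± 2.98 FPKM (SD, n = 3), a log2 fold change of −0.08 with a 95% interval from −0.24 to 0.07 (limma, Benjamini-Hochberg adjusted p = 0.29). The sign depended on scaling, with 0.69 after rescaling to equal FPKM sums. Of 17 other lysosomal hydrolases tested, 7 fell, none rose and 10 were not called, where 17.8% of all genes fell. Their median was −0.81 against −0.04 for all genes as deposited. After rescaling to equal FPKM sums it was −0.05 against 0.72 for all genes. CTSA, the protective protein cathepsin A, fell from 36.2 ± 2.57 to 7.46 ± 1.62 FPKM, and FUCA1, the α-fucosidase, from 14.4 ± 0.869 to 3.81 ± 0.135 FPKM. GAA, the acid α-glucosidase, fell by 1.31 and MAN2B1, an α-mannosidase, by 1.02 on the log2 scale. HEXA, a subunit of β-hexosaminidase, was at 13.7 ± 0.235 and 13.8 ± 0.315 FPKM.

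YWHAZ encodes 14-3-3 zeta, an adaptor that binds phosphorylated proteins, and lies at chr8:101930804-101965623 on the minus strand of hg19. FPKM was 335, 331 and 314 with DMSO and 378, 373 and 377 with BCT. All BCT samples were above all DMSO samples, by a small margin. The means were 327 ± 11.2 and 376 ± 2.86 FPKM (SD, n = 3), a log2 fold change of 0.20 with an SE of 0.047 (limma, Benjamini-Hochberg adjusted p = 0.0036), which passed the FDR and not the fold threshold. With equal FPKM sums it was 0.97 and called. Its within-group SD of 0.036 on the log2 scale was the smallest of the 9, and 5.04% of all genes tested had a smaller one. Of the 6 other 14-3-3 genes, 1 fell and none rose, where 17.8% of all genes tested fell and 13.9% rose. The gene that fell was SFN, 14-3-3 sigma, which went from 366 ± 21.4 to 166 ± 27.9 FPKM. YWHAQ was at 245 ± 8.85 FPKM with DMSO and 150 ± 9.11 with BCT, and YWHAG at 141 ± 4.44 and 156 ± 1.72. The median of the 6 was −0.41 as deposited and 0.36 after rescaling to equal FPKM sums.

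TFRC encodes the transferrin receptor, through which cells take up iron, and lies at chr3:195776155-195809032 on the minus strand of hg19. FPKM was 85.8, 95.2 and 87.1 with DMSO and 36.5, 33.1 and 34.3 with BCT. The 2 groups were far apart. TFRC fell from 89.4 ± 5.09 to 34.6 ± 1.76 FPKM (SD, n = 3), a log2 fold change of −1.37 with an SE of 0.061 (limma, Benjamini-Hochberg adjusted p = 6.9e-07). With equal FPKM sums it was −0.60 and the call was lost. Of 16 other tested genes of iron handling, 5 fell and 2 rose, where 17.8% of all genes fell and 13.9% rose, with a median of −0.28 that turned to 0.49 after rescaling to equal FPKM sums. FTL, the ferritin light chain that stores iron, fell from 667 ± 51.7 to 171 ± 24.0 FPKM, and SLC40A1, the iron exporter ferroportin, from 17.6 ± 0.589 to 5.62 ± 0.610 FPKM. STEAP3, a reductase of the transferrin cycle, fell from 3.50 ± 0.257 to 0.311 ± 0.155 FPKM. HMOX1, heme oxygenase, rose from 2.21 ± 0.290 to 9.04 ± 2.94 FPKM.

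GAPDH, a glycolytic enzyme and the most abundant of the 10 genes, had 5740, 5135 and 5643 FPKM with DMSO and 4031, 3971 and 3556 with BCT. The groups did not overlap. Its log2 fold change of −0.52 had an SE of 0.073 (limma, Benjamini-Hochberg adjusted p = 0.00021), passed the FDR and not the fold threshold, and turned to 0.25 after rescaling to equal FPKM sums and to 0.05 after quantile normalization. The ratio of GAPDH to YWHAZ or GUSB and that of GAPDH to HPRT1 or TFRC therefore moved in opposite directions under BCT.

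The order of levels within the group shifted. With DMSO the order was PPIA, ACTB, YWHAZ, B2M, SDHA, TFRC, HPRT1, GUSB and TBP, and the ranges over samples overlapped only between PPIA and ACTB and between YWHAZ and B2M. With BCT it was PPIA, ACTB, YWHAZ, B2M, SDHA, GUSB, TFRC, TBP and HPRT1. Here PPIA overlapped ACTB, GUSB overlapped TFRC and TBP overlapped HPRT1. HPRT1, at 5.58 times the FPKM of TBP with DMSO, was at 0.941 times with BCT. The most abundant gene, PPIA, was at 105 times the FPKM of TBP with DMSO and at 27.1 times with BCT.

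Ratios between genes of one sample do not depend on a factor applied to the whole sample, so the 36 pairs of the 9 genes were examined next, as deposited. For 31 of the 36, the ratio did not overlap between groups, 31 of 36 being near the 84.3% found over all 81007356 pairs of tested genes. The change of the ratio exceeded 0.85 on the log2 scale for 19 pairs, and 49.9% of all pairs of tested genes passed this size. The pair furthest apart was TBP and HPRT1, whose ratio was 0.175 to 0.188 with DMSO and 0.879 to 1.18 with BCT, a change of 2.57 on the log2 scale. The 6 pairs that changed by less than 0.2 were those among ACTB, PPIA, B2M and SDHA. Quantile normalization, which is not a single factor, pulled these 4 genes apart, to log2 fold changes of −0.42, −0.37, −0.76 and −0.98. ACTB over PPIA was 0.923 to 1.03 with DMSO and 0.908 to 1.04 with BCT. B2M over SDHA was 2.93 to 3.40 with DMSO and 3.17 to 3.30 with BCT. YWHAZ over GUSB was 7.88 to 8.92 with DMSO and 9.33 to 11.1 with BCT, a change of 0.28 on the log2 scale with no overlap.

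**Figure D3:**
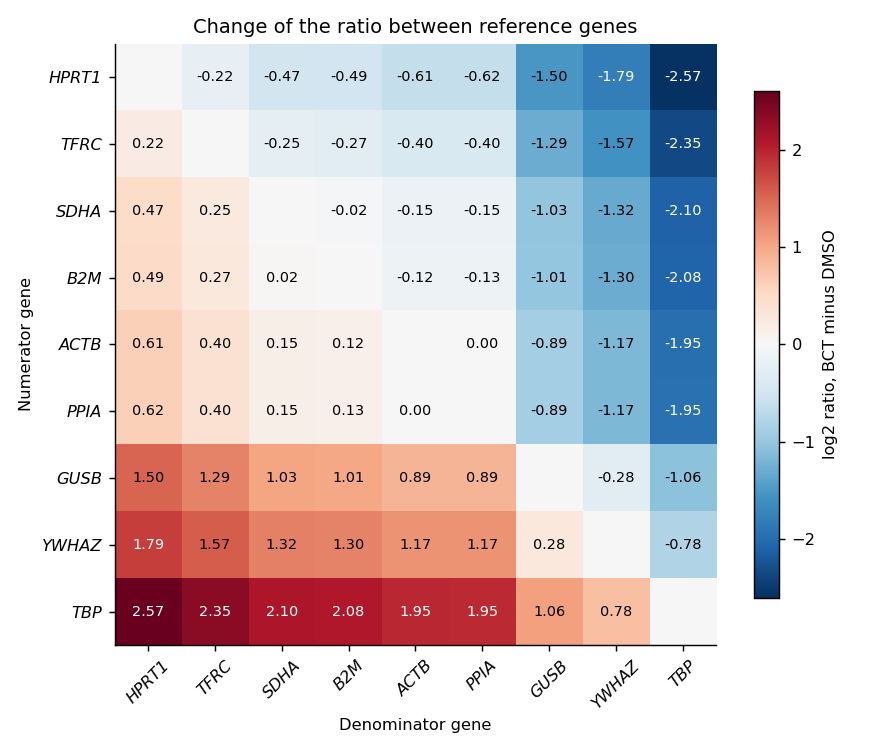
Change of the log2 ratio of the row gene over the column gene, BCT minus DMSO, for each pair of the 9 reference genes, ordered by their own log2 fold change. ACTB, PPIA, B2M and SDHA form a block of ratios within 0.15 of 0, and the ratios of TBP to HPRT1 and TFRC reach 2.57 and 2.35.

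How steady a reference gene looked depended on what it was set against. The mean SD over 6 samples of its log2 ratio to the other members, a measure in common use for ranking reference genes, was lowest for PPIA at 0.384, followed by B2M (0.395), SDHA (0.396) and ACTB (0.397). These 4 genes all fell, by similar amounts. By this measure YWHAZ at 0.650 and TBP at 1.02 were the least steady, and GUSB was at 0.561. When the same ratio was taken to all 12729 genes tested in place of the members, the order turned: GUSB had the lowest mean SD at 0.458 and YWHAZ the next at 0.459, and only 13.4% and 14.1% of all genes had a lower one. PPIA was at 0.639, and 69.6% of genes had a lower value. ACTB was at 0.648 and HPRT1, at 0.906, was the highest of the 9. The median over all genes was 0.538 and the lowest 0.443.

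**Figure D4:**
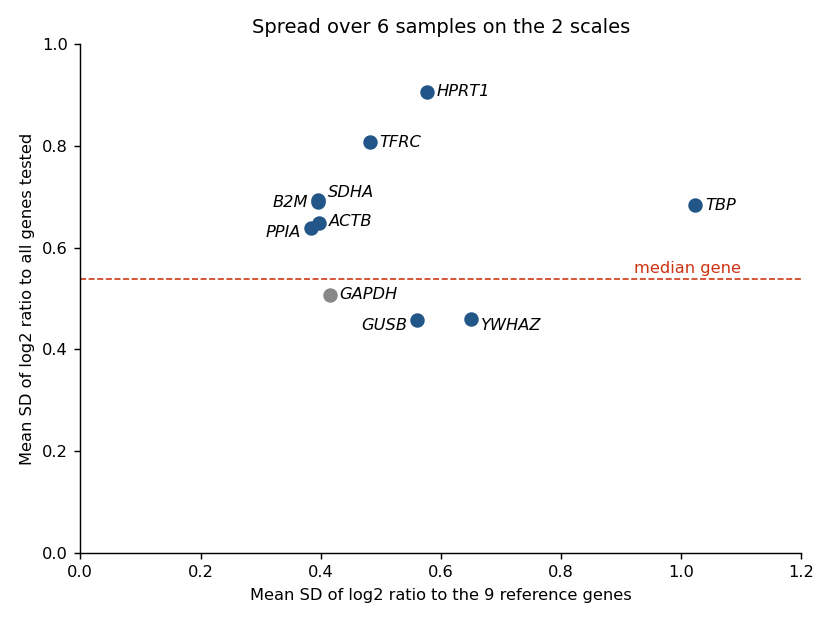
For each of the 9 reference genes and GAPDH (gray), the mean SD over 6 samples of the log2 ratio to the 9 reference genes (horizontal) and to all genes tested (vertical), with the median gene on the vertical measure as a dashed line. PPIA, B2M, SDHA and ACTB are lowest on the horizontal axis and above the dashed line, while GUSB and YWHAZ are below the line and further right.

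Pooling references gave mixed results. The geometric mean of the 9 genes was 163 to 168 FPKM with DMSO and 100.1 to 107 FPKM with BCT, a difference of −0.67 on the log2 scale. That of ACTB and GAPDH differed by −0.74, with an SD of 0.417 over the 6 samples. Among the 36 pairs of members, the geometric mean with the smallest SD was that of TBP and PPIA, 0.032, with a difference of 0.007, as one gene rose and the other fell by nearly the same amount. YWHAZ with GUSB had an SD of 0.050 and a difference of 0.06, and 3 pairs had a smaller SD, each of them TBP with a gene that fell. A pair that offsets in these samples was described here from the same samples, and nothing was measured at another dose or time.

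Other genes in use as references were set beside the 9. Of 43 tested genes on a joined list of other quantitative PCR references and of genes proposed as references for RNA sequencing, 10 fell, 2 rose and 31 were not called, 27.9% called against 31.6% of all genes. Their median log2 fold change of −0.35 applied to the 33 quantitative PCR references and to the joined list alike, and for the 33 it turned to 0.42 after rescaling to equal FPKM sums. TUBB, a β-tubulin, fell from 663 ± 11.2 to 156 ± 26.2 FPKM and had the largest change, −2.10 on the log2 scale. RPL13A, a ribosomal protein, fell from 968 ± 102 to 299 ± 18.7 FPKM, PGK1 of glycolysis from 263 ± 22.3 to 82.9 ± 6.77 FPKM, and EEF1A1, the elongation factor that brings tRNA to ribosomes, from 5305 ± 536 to 2016 ± 110 FPKM. ELF1, an ETS transcription factor, rose from 11.7 ± 0.371 to 40.2 ± 4.48 FPKM. Among those with the smallest change were CYC1 (−0.04), ESD (0.05), TOP1 (0.07) and C1orf43 (0.08, all log2 fold changes as deposited), and these 4 lay between 0.73 and 0.85 after rescaling to equal FPKM sums. CYC1, cytochrome c1, was at 371 ± 11.3 FPKM with DMSO and 362 ± 23.1 with BCT. RPL13A, EEF1A1 and TUBB have close copies in the genome, and the assignment of their reads is uncertain.

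What a reference gene does to a target was computed for the 7 genes that the study followed by quantitative PCR: CCNA2, CDH2 and the androgen-regulated FKBP5, KLK2, KLK3, PMEPA1 and TMPRSS2. The study chose these genes, so their direction is not independent evidence. As deposited, all 7 fell, with differences of −3.07 to −1.35 in log2 FPKM without a pseudocount. Divided by GUSB the range was −2.99 to −1.27, and by YWHAZ −3.27 to −1.55, and all 7 stayed past −0.85. Divided by TBP it was −4.05 to −2.33. Divided by GAPDH, 6 of 7 were past −0.85, from −2.55 to −0.84. Divided by ACTB the range shrank to −2.10 to −0.38, and only KLK3 was past −0.85, although all 7 differences were below 0 and the groups of 6 did not overlap. HPRT1 as denominator left 3 of 7 targets lower and 4 higher, from −1.48 to 0.23. Of those lower, only KLK3 had groups that did not overlap, and of those higher, PMEPA1 and CDH2 overlapped. TFRC left 6 lower, from −1.70 to 0.02, and the groups of only 2 of these did not overlap.

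KLK3, which encodes prostate-specific antigen, shows the span. Relative to ACTB, with the DMSO mean set to 1, it was 0.268, 0.212 and 0.224 in the BCT samples. Relative to TBP it was 0.0842, 0.0539 and 0.0485, and relative to HPRT1 0.412, 0.355 and 0.312. The same samples thus gave KLK3 as 4.28-fold, 16.6-fold or 2.80-fold lower. KLK3 was below its DMSO range with each of the 9 denominators. FKBP5, an androgen-induced co-chaperone, differed by −0.38 on the log2 scale relative to ACTB and by −1.27 relative to GUSB. Relative to HPRT1 all its BCT samples were above all its DMSO samples, with a difference of 0.23.

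**Figure D5:**
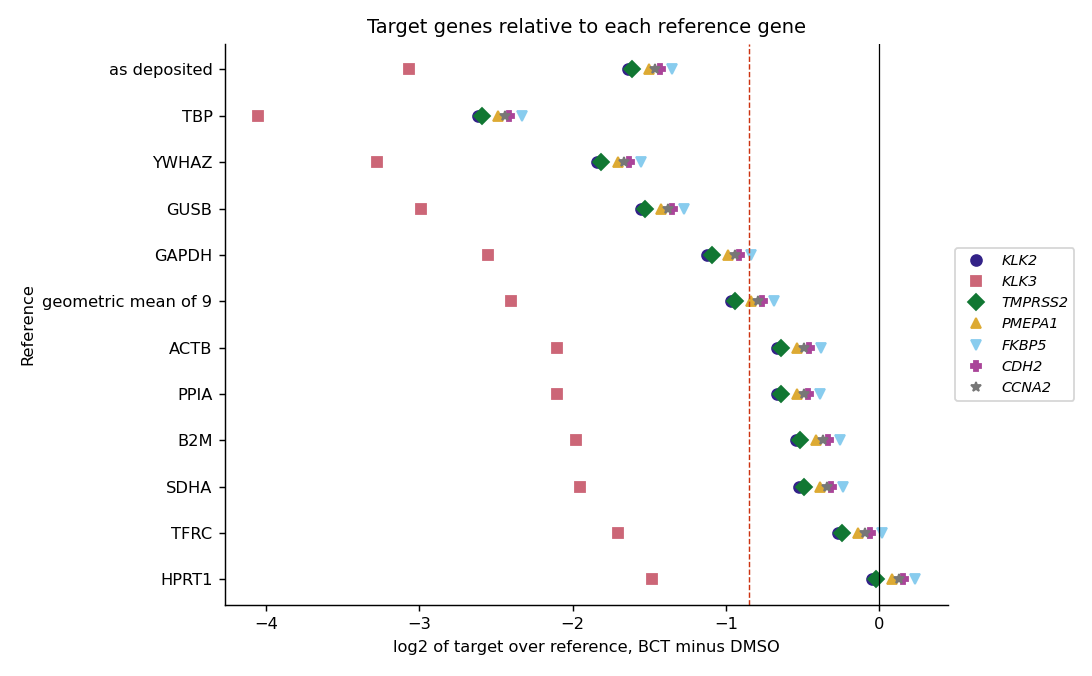
Difference between BCT and DMSO in the mean log2 ratio of each of 7 target genes (symbols) to each reference (rows), with the deposited FPKM in the top row and a dashed line at −0.85. The whole set of targets shifts by the change of the reference, from −4.05 to −2.33 over TBP to −1.48 to 0.23 over HPRT1.

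The same exercise was carried to all genes by dividing each sample by its level of 1 gene and repeating the limma test. As deposited, 2263 genes fell and 1764 rose. Scaled to GUSB, 1978 fell and 2047 rose, and scaled to YWHAZ, 3059 fell and 1224 rose. With ACTB as the scale, 464 fell and 6754 rose, and with PPIA 459 and 6730. With HPRT1 as the scale, 141 fell and 9835 rose, the most uneven split. TBP gave the reverse, with 7250 lower and 314 higher. GAPDH gave 960 lower and 4064 higher, and the geometric mean of the 9 genes 759 and 4952. On these scales the median over all genes tested was 0.92 with ACTB, 1.52 with HPRT1 and 0.04 with GUSB.

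Genes with the pattern most like each reference were found by the root mean square difference of centered log2(FPKM + 0.1) over the 6 samples, among genes that averaged 10 FPKM or more and are not on the Y chromosome. For TBP they were ZFR, at 22.4 to 23.8 FPKM with DMSO and 41.2 to 48.1 with BCT, and PSMD6, a proteasome subunit. TIMM21 and TCEA3 were nearest to PPIA, and ELMO3 and GPAA1 to ACTB. ITM2C and PGRMC1 followed B2M, and ABHD3 and CD81 followed HPRT1. CECR1 and DLD were nearest to SDHA, RAD23B to YWHAZ, RRNAD1 and SGTA to GUSB, and ACACA and HLTF to TFRC. The differences ran from 0.014 (ZFR with TBP) to 0.036 (CD81 with HPRT1), and the likeness describes these 6 samples only. The smallest SDs over the 6 samples, of 7164 genes at that level, included those of FAM104A, GAR1, TBCCD1 and PYGO2, with SDs of 0.013 to 0.021 on the log2 scale as deposited, where GUSB had 0.092 and YWHAZ 0.116. FAM104A lay between 18.5 and 18.9 FPKM in all samples, and GAR1, a component of the box H/ACA ribonucleoproteins, between 41.4 and 42.7 FPKM. Such steadiness holds for the deposited scale, since another scaling moves all genes of a sample together.

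The calls of the reference genes were tied to that scale. With FPKM sums made equal, the median over all genes tested was 0.72 in place of −0.04, which left TBP and YWHAZ as the only members called, both higher. A single factor per sample shifts all genes nearly alike, so positions relative to the median of all genes are kept by construction: as deposited ACTB lay at −0.93, HPRT1 at −1.54 and TBP at 1.01 relative to it. Quantile normalization can move them, and gave −0.45 for ACTB, −1.51 for HPRT1 and 0.95 for TBP. Tested against the threshold itself, B2M, HPRT1, SDHA and TFRC were called and ACTB, PPIA and TBP were not.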

How the data were processed

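RNA from 3 DMSO and 3 BCT samples of 22RV1 cells had been made into libraries with a kit that does not mark strand and read as 100-base pairs. Per the study's methods, the authors used Trimmomatic (0.38 in the submitters' processing notes) for trimming, HISAT2 for alignment to hg19 and StringTie for assembly, and deposited FPKM of 26255 genes per sample. The notes also list CASAVA and HTSeq, and the gene annotation is not given in the sources used here. FPKM depends on transcript models and on the mapped fragments of the sample. How far MIR6087 bears on the other values as deposited was not tested. Only relative depth can be read from FPKM.

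From the deposited FPKM, limma 3.58.1 (R 4.3.3, eBayes with trend) was run on log2(FPKM + 0.1) for the 12729 genes averaging 1 FPKM or more, all 6 samples, treatment as the only term, Benjamini-Hochberg adjustment over all genes, and calls past 0.85 in log2 fold change and an FDR of 0.05. Ratios between genes used log2 FPKM without a pseudocount for members and targets, and with it for all genes. Named genes were the 9 members and GAPDH; the 5 largest and 5 smallest changes among other references; up to 4 called genes with the largest change in each partner list; the 2 genes most like each member; and the 5 genes with the least spread. Some genes this rule covers are not reported here. ACTG1, IMPDH2, PRPS1, HEXA, HLA-C, TBPL1 and the other SDH and 14-3-3 genes were named as paralogs or partners after their values were seen. The members and lists were chosen with earlier results of these data known.

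On simulated data of 12729 genes, the fit called 192 of 200 genes given a log2 change of 1.5, and 1 of 12529 others. Starts in the deposited annotation count from 0: the start plus 1 equaled a GENCODE transcript start for 7961 of 22088 matched genes. Coding sequences and shared windows come from GENCODE on GRCh37, promoters from RefSeq on GRCh38.p14. Alternatives covered the pseudocount, the filter, 5 scalings, the variance model, the FDR, a test against the threshold, a replicate block, leaving out samples in turn, and each reference gene as the scale.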

Additional observations from a re-analysis of the deposited data

How the results depend on the processing

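After rescaling to equal FPKM sums 6277 genes were called (668 lower, 5609 higher, with 2395 of the 4027 kept in the same direction, 10.6% lower against 56.2% as deposited) and 2 of the 9 reference genes, with log2 fold changes of −0.20 for ACTB, −0.33 for B2M, −0.81 for HPRT1, −0.20 for PPIA, −0.35 for SDHA, −0.60 for TFRC, 0.97 for YWHAZ, now called, and 0.69 for GUSB, which reversed. Equal sums without MIR6087 left 3 members called, with −0.58 for ACTB, −0.71 for B2M, −0.58 for PPIA, −0.73 for SDHA and 0.31 for GUSB, which reversed, and 26.4% of the 4577 calls were lower. GUSB also reversed to 0.032 with equal upper quartiles. Quantile normalization left 4 members called, with −0.42 for ACTB, −0.76 for B2M and −0.37 for PPIA. A test against the fold threshold called 2425 genes and 4 members, and lost ACTB (−0.97), PPIA (−0.97) and TBP (0.98). Scaled to 1 gene, the calls numbered 7218 for ACTB, 7829 for B2M, 7564 for TBP, 9976 for HPRT1, 7189 for PPIA, 7932 for SDHA and 9066 for TFRC. Without a filter 2657 genes rose and with a mean of at least 5 FPKM 1150 rose, against 1764. Of 180 member values under alternatives, 160 kept both direction and call, and of 168 list medians 48 moved by more than the spread between replicates, most of them under the rescalings. Leaving out each sample gave 3834 to 4420 called genes and changed no member's call.

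The labels do not say whether the replicate numbers pair the samples. Deviations from the group mean correlated at 0.12, 0.033 and 0.034 for samples with the same number. For samples with other numbers they correlated at −0.12 to 0.074. With 3 samples a group, these values cannot decide whether the samples were paired. With the replicate block 4033 genes were called, among them all 4027, and no member's call changed.

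Depth limits little for the members, whose FPKM was at least 13.7. With 3 samples a group of 1 cell line, at 1 dose and 1 time, nothing is known of other lines or doses, and the cause of the shifts between scalings, beyond the share of MIR6087 in the sums, was not tested.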
